A study of Drosophila melanogaster with 2 samples.

Results

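Distal intronic summits were the 603 binding summits of CG6276-eGFP, among 7326 in all, that lay inside a gene, in no annotated exon, and more than 10000 bp from the nearest annotated transcript start of any gene. They were taken from peaks that passed the authors' irreproducible discovery rate (IDR) procedure, a filter on agreement between replicates, on the dm6 build. The summit is the single base a peak caller gives as a peak's highest point. The members made up 8.23% of all thresholded summits (95% Wilson interval 7.62% to 8.88%).

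The data came from chromatin immunoprecipitation and sequencing (ChIP-seq) of whole prepupae of both sexes, from the Drosophila melanogaster strain CG6276-GFP. This line carries an insertion that stably expresses CG6276 with GFP at its C-terminus, and an anti-GFP antibody was used for the precipitation. There was a single group with 2 biological replicates, numbered 2 and 4 in the labels, and no control library was analysed here. An age of 72 day is given there, a unit that is in doubt for this stage. Whole animals mix all tissues, so a summit bound in few cells and one bound weakly in many cannot be told apart.

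Long introns of flies often hold enhancers, short regulatory sequences that act on a promoter from a distance. The genes with the longest introns include many regulators of development, and some introns contain whole smaller genes. The prepupa is the stage at which a pulse of the steroid hormone ecdysone starts the replacement of larval by adult tissues.

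The 5 strongest members that had a matching peak in both replicate lists, leaving out 1 whose sequence is not printed, are shown as 241 bp of reference sequence centred on the summit (RefSeq Release 6 assembly, dm6, plus strand). They are shown because the sequence results turn on an A+T-rich centre and on the 5-base word CAGTG, or its reverse complement CACTG, to its side, which not every window holds. Capitals mark every CAGTG and CACTG.
lilli chr2L:2924435-2924675: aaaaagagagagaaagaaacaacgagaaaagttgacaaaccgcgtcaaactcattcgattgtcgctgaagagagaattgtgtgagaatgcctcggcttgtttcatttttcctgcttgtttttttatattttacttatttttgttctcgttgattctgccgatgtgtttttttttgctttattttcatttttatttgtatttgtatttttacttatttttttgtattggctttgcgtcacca
heca chr3R:30296032-30296272: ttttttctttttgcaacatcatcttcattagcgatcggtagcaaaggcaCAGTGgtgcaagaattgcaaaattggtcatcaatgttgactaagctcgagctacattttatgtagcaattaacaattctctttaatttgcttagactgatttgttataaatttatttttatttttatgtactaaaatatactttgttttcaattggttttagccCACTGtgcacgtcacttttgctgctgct
Snoo chr2L:7925476-7925716: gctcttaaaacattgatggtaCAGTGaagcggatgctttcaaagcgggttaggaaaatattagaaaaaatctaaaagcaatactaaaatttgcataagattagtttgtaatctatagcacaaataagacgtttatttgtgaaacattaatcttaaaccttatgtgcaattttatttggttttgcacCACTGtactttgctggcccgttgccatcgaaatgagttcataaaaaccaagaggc
InR chr3R:21605304-21605544: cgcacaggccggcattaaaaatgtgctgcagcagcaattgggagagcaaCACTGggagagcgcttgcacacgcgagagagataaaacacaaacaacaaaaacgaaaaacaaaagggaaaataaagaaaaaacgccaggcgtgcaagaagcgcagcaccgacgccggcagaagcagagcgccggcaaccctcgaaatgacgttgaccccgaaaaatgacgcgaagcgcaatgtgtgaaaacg
CG6959 chr3R:11851329-11851569: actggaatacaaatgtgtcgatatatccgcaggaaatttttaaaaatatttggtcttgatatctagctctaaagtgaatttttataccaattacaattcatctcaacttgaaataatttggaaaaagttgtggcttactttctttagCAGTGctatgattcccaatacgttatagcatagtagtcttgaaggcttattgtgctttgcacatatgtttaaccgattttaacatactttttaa

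The next 3 are the strongest further matched members that hold CACTG before and CAGTG after the summit, at least 40 bp away on each side. These were chosen as examples after their values were seen. Capitals mark the same words, and the strand, build and length are as above.
tnc chr3R:25010135-25010375: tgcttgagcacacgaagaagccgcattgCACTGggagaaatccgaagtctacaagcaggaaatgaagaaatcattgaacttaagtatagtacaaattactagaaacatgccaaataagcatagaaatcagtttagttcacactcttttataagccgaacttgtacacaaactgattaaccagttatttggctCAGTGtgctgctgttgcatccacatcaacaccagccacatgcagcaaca
heca chr3R:30293575-30293815: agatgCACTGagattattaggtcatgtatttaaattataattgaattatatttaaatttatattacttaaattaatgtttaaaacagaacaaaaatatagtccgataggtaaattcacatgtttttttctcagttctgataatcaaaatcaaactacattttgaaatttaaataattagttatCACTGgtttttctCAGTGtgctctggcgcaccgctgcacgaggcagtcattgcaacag
Pka-C3 chr3L:15940897-15941137: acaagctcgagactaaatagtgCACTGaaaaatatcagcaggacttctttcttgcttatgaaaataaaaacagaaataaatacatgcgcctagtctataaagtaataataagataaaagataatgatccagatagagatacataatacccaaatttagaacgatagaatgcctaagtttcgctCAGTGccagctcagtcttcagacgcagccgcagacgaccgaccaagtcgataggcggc

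The window of lilli, the strongest member, holds 0 copies of either word and is 68.0% A+T. Its central 79 bp are 65.8% A+T, less than the window as a whole. The windows of heca and Snoo, the next strongest, hold 2 copies each, with a central stretch of 79 bp that is 72.2% A+T in heca and 75.9% in Snoo. Both of these windows read CAGTG before and CACTG after the summit, the less frequent order among members, as given below. The InR window holds 1 copy and is 48.5% A+T over its 241 bp, the lowest of the 8 shown. Its central 79 bp are 60.8% A+T, and those of CG6959 are 70.9%. In the 3 chosen examples, from tnc, heca and Pka-C3, the central 79 bp are 69.6%, 73.4% and 72.2% A+T.

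Across all members, the word stood beside the summit and not on it. Counted in 20 bp steps on both strands, CAGTG occurred at 1.41 per kb just before and 1.16 per kb just after the summit, and at 4.73 per kb from 81 to 100 bp before it and 5.56 per kb from 80 to 99 bp after it. Positions every 200 bp of the sequence in which a member could lie, called eligible sequence here, had 1.65 per kb at the centre and 1.67 per kb at 80 to 99 bp. So the members' counts were near that level at the summit and about 3 times it at either side.

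Members with CAGTG on either strand in the 100 bp that begin 40 bp from the summit, on either side, numbered 317 of 603, or 52.6% (95% interval 48.6% to 56.5%). The same zones held it at 48.5% of all thresholded summits and 27.3% of eligible positions. They held it at 36.5% of the 2754 distal intronic summits of the pooled list that overlapped no thresholded peak. At thresholded intronic summits over 2 and up to 10 kb from a start the share was 50.8%, inside the members' interval. Within 39 bp of the summit the share was 12.9% for members and 12.1% for eligible positions. On both sides at once it was found in 95 members (15.8%, 13.1% to 18.9%), against 2.51% of eligible positions. Other thresholded summits had it on both sides somewhat less often. The share was 12.5% (11.1% to 14.1%) in intron over 2 and up to 10 kb from a start, and 11.4% over all thresholded summits. It was 5.74% for the distal intronic summits of the pooled list that overlapped no thresholded peak. The zones were set after the profile was seen, so these shares describe it and do not test it.

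The word also had a preferred direction. CACTG before and CAGTG after the summit, as read on the plus strand, occurred together at 58 members (9.62%, 95% interval 7.51% to 12.2%), and the opposite pair, CAGTG before and CACTG after, at 21 (3.48%, 2.29% to 5.27%). At eligible positions the first pair was found in 0.695% and the second in 0.684%. Over all 7326 thresholded summits the same order was seen with a smaller gap, 5.27% against 3.64%. With the summits that the replicate lists give for the 447 members matched in both, the first pair was at 8.50% and the second at 3.58% in replicate 2, and 7.61% and 3.58% in replicate 4. The first pair was therefore the more frequent with either replicate's summits.

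Members of higher signal had the word more often. It stood in the side zones of 58.3% of the stronger 302 members and 46.8% of the weaker 301, with intervals of 52.6% to 63.7% and 41.3% to 52.5%. Among peaks of exactly 450 bp, the width of 303 members, the share was 46.2%, and among the 300 of another width it was 59.0%.

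A+T content changed over the same distance. It averaged 68.1% in the 20 bp before the summit, 60.1% from 81 to 100 bp before it and 54.9% from 181 to 200 bp before it. Eligible positions stayed between 59.4% and 59.8% over this range. Over windows reaching 100 bp to each side, the median was 65.2% for members, 57.2% for flanking windows centred 500 bp away on both sides of each summit, and 59.7% for eligible sequence (59.2% within the arm span defined further on). The eligible introns of the host genes alone had a median of 59.2%, and other pooled distal summits 59.7%. The members' value was close to that of other thresholded intronic summits, with 64.7% in intron over 2000 and up to 10000 bp from a start and 65.2% in intron over 500 and up to 2000 bp. All 7326 thresholded summits had 64.2%, and promoter summits, within 500 bp of a start, had a lower 61.7%.

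**Figure D1:**
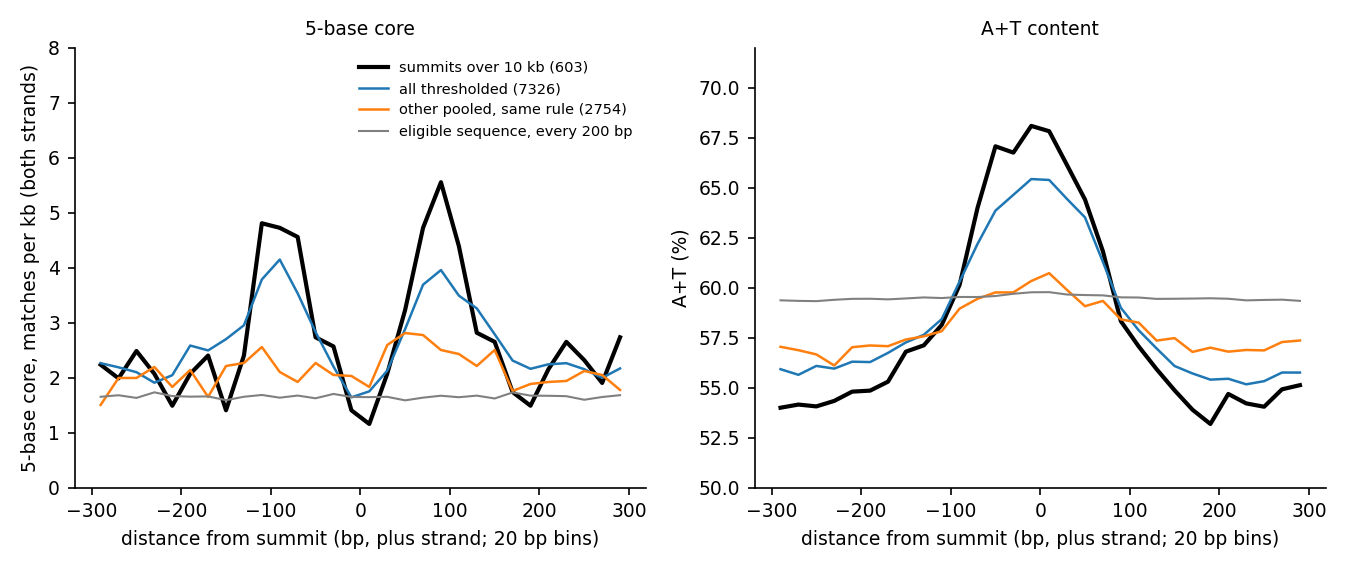
CAGTG on both strands, the 5-base core of the left panel (matches per kb), and A+T content (right panel, percent) in 20 bp steps from 300 bp before to 300 bp after the summit, for the 603 distal intronic summits, all thresholded summits, other pooled summits under the same rule, and eligible positions every 200 bp. The distal intronic line has 2 side peaks, 4.81 per kb on the left and 5.56 on the right, around a centre of 1.16, and the A+T line has a single central peak of 68.1%.

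Of 15 words searched on both strands in windows reaching 100 bp to each side of the summit, CAGTG differed most from eligible sequence in the direction of more windows. It was in 286 member windows (47.4%, 43.5% to 51.4%), 27.4% of flanking windows and 26.9% of the 83811 eligible windows of that length. Other thresholded summits had it nearly as often: 44.6% in intron over 2000 and up to 10000 bp from a start, which lies inside the members' interval, 42.2% in intron over 500 and up to 2000 bp, 39.3% at promoters and 42.6% over all. AGGTCA, a core bound by nuclear receptors, was in 17 member windows (2.82%, 1.77% to 4.47%), against 3.62% of all thresholded windows and 5.40% of eligible windows. Within the arm span the eligible share was 4.43%, which lies inside that interval. The ETS core TTCCGG was in 16 (2.65%, 1.64% to 4.27%), against 2.77% of all thresholded windows and 4.93% of eligible windows. GAGAG, the repeat bound by the GAGA factor, was in 23.7% of member windows, 22% of eligible windows and 35.6% of windows at promoter summits. The palindromic E-box CACGTG was in 6 members (0.995%, 0.457% to 2.15%, against 2.10% of eligible windows) and TATCGATA, the DRE word of housekeeping promoters, in 2 (0.332%, against 0.492%). Intervals of the members also included the eligible share for the homeodomain word TAATTA (14.6% against 13.4%), the GATA word AGATAA (13.6% against 11.5%), TGANTCA of AP-1 (3.81% against 3.71%), the forkhead word GTAAACA (4.31% against 3.74%), CAGGTAG of Zelda (0.995% against 0.906%), CATATG (6.30% against 5.53%), TTTATGG (4.64% against 5.68%), GTGGGAA of Su(H) (1.82% against 2.46%), and CACACACA (5.14% against 4.78%). Against eligible windows within the arm span, the shares for TTTATGG (6.80%) and AGATAA (10.6%) lay outside the members' intervals. Words were counted separately, so matches of different words may overlap, and a match is not a bound site.

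An unguided count of 6-base words, made after the CAGTG values were seen, ranked words that share letters with it. GTGCAC was in 10.1% of members against 3.93% of eligible windows, CACTGA in 19.2% against 7.62%, CAGTGC in 19.9% against 7.89%, and AGTGCA in 26.5% against 11.8%. ATATAT followed at 26.9% against 13.7%. Overlapping words of this kind are not separate results.

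The 603 members had lower signal values than thresholded peaks as a whole. Their median signal value, a score of the authors' peak caller, was 226.9 (quartiles 169.8 and 317.5, highest 1585), against 251.5 for all 7326 (quartiles 180.1 and 417.4, highest 4951), 241.3 for intronic summits over 2000 and up to 10000 bp from a start, and 268.5 for promoter summits, those within 500 bp of a start. With thresholded peaks split by signal into 5 equal groups, 71 of the 1466 strongest were members (4.84%) and 157 of the 1465 weakest (10.7%). The groups between them, in falling order of strength, had 7.10%, 9.35% and 9.15%. Taken alone, the strongest 7326 peaks of replicate 2 held 528 such summits (7.21%) and those of replicate 4 held 607 (8.29%).

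Agreement between the replicates was close to that of the whole list. A peak sharing at least 50% of both lengths was found in both replicate lists for 447 of 603 members (74.1%, 70.5% to 77.5%), with 75.3% of all thresholded peaks matched in this way. The replicate 2 list matched 507 and the replicate 4 list 489, and with an overlap of 1 bp 591 members were matched in both. Among the 447, the median rank was 4906 in replicate 2 and 4509 in replicate 4 of 30000 peaks. The 2 summits of a matched peak lay a median of 25 bp apart and within 100 bp for 93.3%. Across these 447 peaks the signal values of the replicates correlated with rho = 0.527 (Spearman) and, after log2 transformation, r = 0.607 (Pearson). This describes peaks that the IDR step had selected for such agreement.

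**Figure D2:**
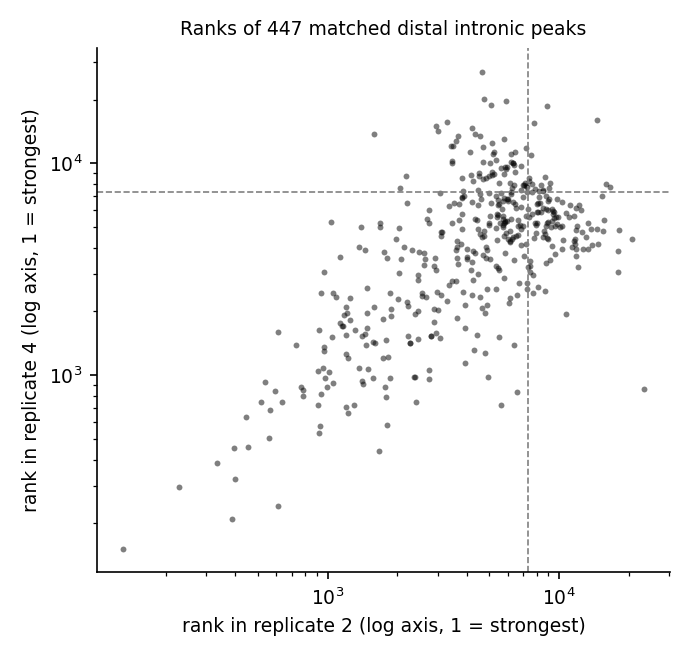
Rank of each of the 447 matched members in replicate 2 (horizontal) and replicate 4 (vertical), log axes with 1 the strongest, each point a peak, dashed lines at rank 7326. The points follow the diagonal, 272 lie inside both lines, and 18 lie outside both.

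Before the IDR step, the pooled list had 3513 summits that met the distal intronic rule among 30000. A thresholded peak overlapped 759 of these (21.6%, 20.3% to 23.0%), and 30.5% of the pooled list as a whole. The share was 27.1% for intronic summits over 2000 and up to 10000 bp from a start, 48.3% at promoters and 20.6% between genes. Exonic summits away from promoters had 22.3% (20.1% to 24.7%), an interval that includes the distal intronic and intergenic shares. Distal intronic, intergenic and exonic summits thus had the lowest shares of the 6 classes.

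The strongest member lay in intron 2 of lilli, which encodes an AF4/FMR2-family component of the super elongation complex (chromosome 2L, 2924248 to 2924831, 22008 bp from the nearest start). It had signal values of 845.6 in replicate 2 and 731.7 in replicate 4 and ranked 131 and 152 there. The second lay in intron 1 of heca, the headcase gene of imaginal cells (chromosome 3R, 30295990 to 30296356), with ranks 229 and 296. Snoo, a gene of the Ski/Sno family of Smad cofactors, held the third (chromosome 2L, 7925403 to 7925790, 34892 bp from a start), with ranks 388 and 210. All 15 of the strongest matched members ranked 930 or better in both replicates.

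Several of the other strong hosts encode parts of signalling pathways. InR, the insulin receptor gene, had a member in its intron 1 with a signal value of 1113 (chromosome 3R, 21605251 to 21605617, ranks 332 and 384). It lay 10316 bp from the nearest start, close to the 10000 bp limit. vn, which encodes the neuregulin-like ligand of the EGF receptor, had 1 of 1019 in intron 1 (chromosome 3L, 5834277 to 5834582, ranks 395 and 454). Ptp10D, a receptor tyrosine phosphatase gene, had 1 of 913.0 (chromosome X, 11659074 to 11659489), and tnc, which encodes the matrix protein tenectin, 1 of 1006 (chromosome 3R, 25010088 to 25010415).

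Other strong members lay in genes of transcription factors and a cofactor. luna, a Krüppel-like factor gene, had a signal value of 1112 (chromosome 2R, 11065558 to 11065970, ranks 399 and 324). tai, which encodes the ecdysone receptor coactivator taiman, had 914.9 (chromosome 2L, 9207012 to 9207480), and ftz-f1, the nuclear receptor gene needed for the prepupal response to ecdysone, 844.6 (chromosome 3L, 18790733 to 18791439, ranks 514 and 745). Hr4, another nuclear receptor gene of the ecdysone response, had 803.8 (chromosome X, 1968922 to 1969304, ranks 536 and 930). The remaining strong members lay in CG6959 (1083), where CG42741 and twi overlap (854.4), in heca a further time (808.3) and in kirre (795.1).

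The farthest summit lay 51852 bp from any start, in intron 2 of luna (chromosome 2R, 11033509 to 11033958). Its signal value was 154.4, with ranks of 9692 in replicate 2 and 5590 in replicate 4. The next, at 44605 bp in mgl (chromosome X, 9401176 to 9401360, signal 191.0), had no 50% match in either replicate list, and the one at 43465 bp in mamo, a zinc-finger gene (chromosome X, 13889249 to 13889451, signal 334.2), was matched in replicate 2 alone. Of the 3 farthest members, 1 was thus matched in both replicates. Over all members the median distance was 14720 bp (quartiles 11872 and 20062), and 152 (25.2%) were over 20000 bp away. At the limit of the rule, the nearest member was at 10004 bp in CG32982 (signal 186.9), and the nearest intronic summit left out at 9981 bp in CG33144 (signal 366.7).

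Eligible sequence, intron over 10000 bp from any start, came to 17.2 Mb, and the members had a density of 35.0 per Mb in it (95% Poisson interval 32.3 to 37.9). The density was 73.6 per Mb in intron over 2000 and up to 10000 bp from a start and 109 per Mb in intron over 500 and up to 2000 bp. The replicates alone gave 30.7 per Mb in replicate 2 and 35.3 in replicate 4. Intervals cover counting error only.

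Of this eligible sequence, 5.77 Mb or 33.5% lay outside the span between the first and last thresholded summit of its chromosome arm, mostly at the ends next to the centromeres. The pooled list with its 30000 peaks had 8 summits in it, the replicate 2 list 6 and the replicate 4 list 15. The 10 genes with the most sequence over 30000 bp from a start, led by Myo81F (chromosome 3R, 567076 to 2532932) and Pzl (chromosome 3R, 2554162 to 3263582), held 4.41 Mb of eligible sequence with 0 members and 0 other pooled summits. How reads were mapped or kept in such sequence is not stated in the labels, and its part in the empty stretches was not tested. Soft-masked, that is repeat-marked, bases made up 35.1% of eligible sequence over 30000 bp from a start and 23.5% of that up to 15000 bp.

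Within the span, the members' density was 52.7 per Mb (48.6 to 57.1) over 11.4 Mb. It was 61.0 per Mb over 10000 and up to 15000 bp from a start, 50.6 up to 20000 bp, 55.6 up to 30000 bp and 21.5 (14.5 to 30.7) beyond that. Without the restriction, the last value was 5.10 per Mb. Nearer to starts the density within the span was 125 per Mb over 500 and up to 1000 bp, 103 up to 2000 bp, 81.8 up to 5000 bp and 70.2 up to 10000 bp. Other pooled summits within the span lay between 210 and 259 per Mb in all 8 distance classes. Thresholded summits thus became sparser with distance from starts, while other pooled summits stayed within a narrow range.

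**Figure D3:**
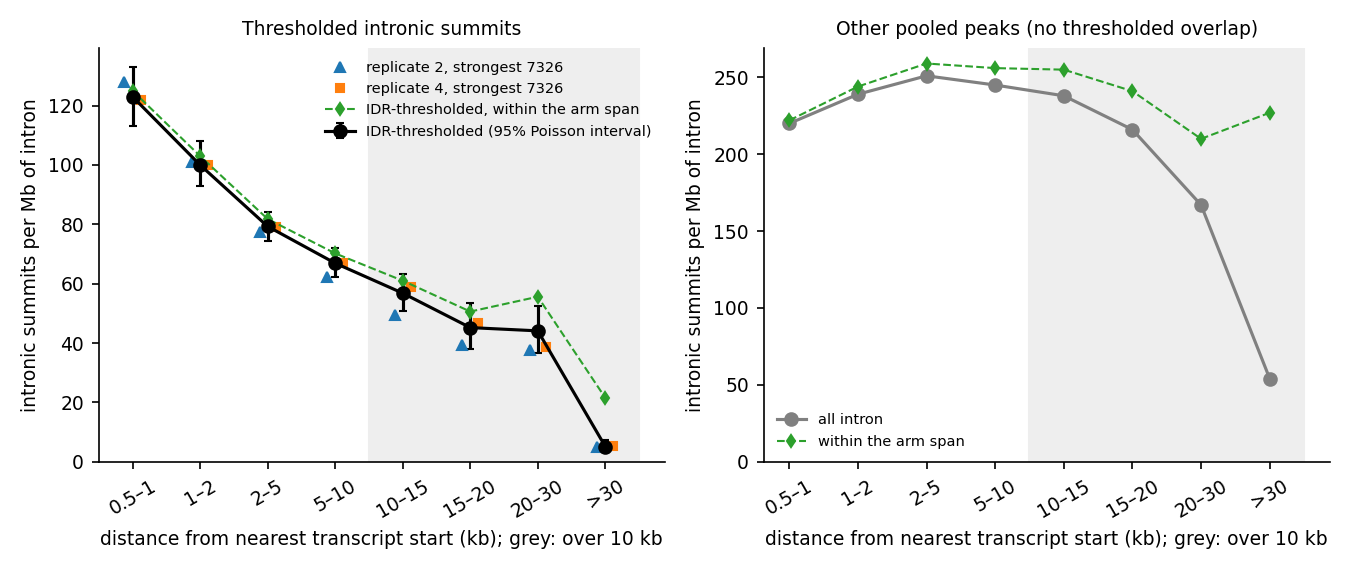
Intronic summits per Mb of intron by distance from the nearest transcript start (8 classes, the 4 over 10 kb on grey). Left, thresholded summits with 95% Poisson intervals, the strongest 7326 peaks of each replicate, and thresholded summits within the span of each arm. Right, other pooled summits over all intron and within the span. Over all intron the thresholded line ends at 5.10 per Mb and the other pooled line at 54.1, against 21.5 and 227 within the span.

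By chromosome, the density over all eligible sequence came to 47.5 per Mb for arm 2L with 98 members and 42.3 for X with 132. Arm 3R had 32.3 with 183 members, arm 3L 31.3 with 99, and arm 2R 29.4 with 91. The 3 lowest arms were those with the most eligible sequence outside the span: 2.69 Mb on 3R, 1.65 Mb on 2R and 1.25 Mb on 3L. Arm 2L had 0.141 Mb outside it and X 0.00369 Mb. Leaving that sequence out would raise the densities of the 3 lowest arms far more than those of 2L and X. The order of the arms therefore holds only over all eligible sequence, and densities by arm within the span were not computed. Chromosome 4 had 0.108 Mb of eligible sequence and no member, where a count of 0 has a 95% Poisson limit of 34.2 per Mb.

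Members lay in first introns more often than eligible positions did. Intron 1 held 151 (25%, 21.7% to 28.7%), against 15.2% of eligible positions and 19.2% of those within the arm span. Intron 2 held 247 (41.0%), against 24.8% of eligible positions and 31.4% within the span. The introns that held them had a median length of 30564 bp (quartiles 16325 and 54308). The nearest start belonged to the host gene itself for 325 members (53.9%, 49.9% to 57.8%), against 43.2% of eligible positions and 47.4% within the span. For the other 278 it belonged to another gene, which lay within the host for 161 and outside it for 117.

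Many members lay near another. Another member lay within 2000 bp for 283 of 603 (46.9%, 43.0% to 50.9%), and the median gap to the nearest was 2176 bp. With overlapping peaks joined, 247 of 578 regions (42.7%) had a neighbour that close. The share was 47.5% among intronic summits over 2000 and up to 10000 bp from a start and 28.0% (25.6% to 30.5%) among those over 500 and up to 2000 bp. Neighbours were counted within each class only. The last class lies in narrow bands beside starts, which limits its neighbours, so the 28.0% is not a like comparison. No share expected from eligible positions was computed.

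The members lay in 232 genes, of 810 with any eligible sequence. Of 784 protein-coding genes with eligible sequence, 221 were hosts (28.2%). A single summit was found in 109 hosts, 2 in 45 and 3 or more in 78, up to 16. The 12 hosts with the most held 125 members (20.7%) in 3.97% of the eligible sequence. The sequence share counts the intron common to CG46467 and Glut4EF for each of them and so is somewhat too high, while members in both were counted once. Of the 232 hosts, 208 (89.7%) were also hosts among the strongest 7326 peaks of replicate 2, 209 (90.1%) among those of replicate 4, and 192 (82.8%) among both. CG6276 was not among the genes with eligible sequence.

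kirre, which encodes an immunoglobulin-family adhesion protein of muscle founder cells, had 16 members in 153 kb of eligible intron (chromosome X, 2740384 to 3134532), with 15 in replicate 2 and 14 in replicate 4. They ranged from 143.4 to 795.1 in signal value, and the first lay 121 kb and the last 308 kb from the start of the gene. Snoo had 14 in 66.4 kb (14 and 20 in replicates 2 and 4), spread from 17.9 to 75.7 kb. sbb, the scribbler or brakeless gene of a nuclear corepressor, had 14 in 25.5 kb (chromosome 2R, 18278198 to 18357296), and every one of them was within 2000 bp of another. It was the most densely filled of the 12 hosts, with 55.0 per 100 kb.

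heca had 13 members in 39.9 kb, and Tet, which encodes the fly homologue of the TET dioxygenases, 11 in 53.6 kb (chromosome 3L, 2786207 to 2879158). Glut4EF and CG46467 overlap and shared the same 10 members, and mgl, which encodes the endocytic receptor megalin, had 10 in 90.0 kb. cv-c, a RhoGAP gene, had 10 in 38.5 kb, with a highest signal of 336.4, the lowest maximum of the 12 hosts. Hr4 had 9 in 17.7 kb, or 50.9 per 100 kb, between 24.2 and 37.9 kb from the start of the gene. pyd, which encodes the junction protein of the ZO-1 family, and CG31176 also had 9 each.

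**Figure D4:**
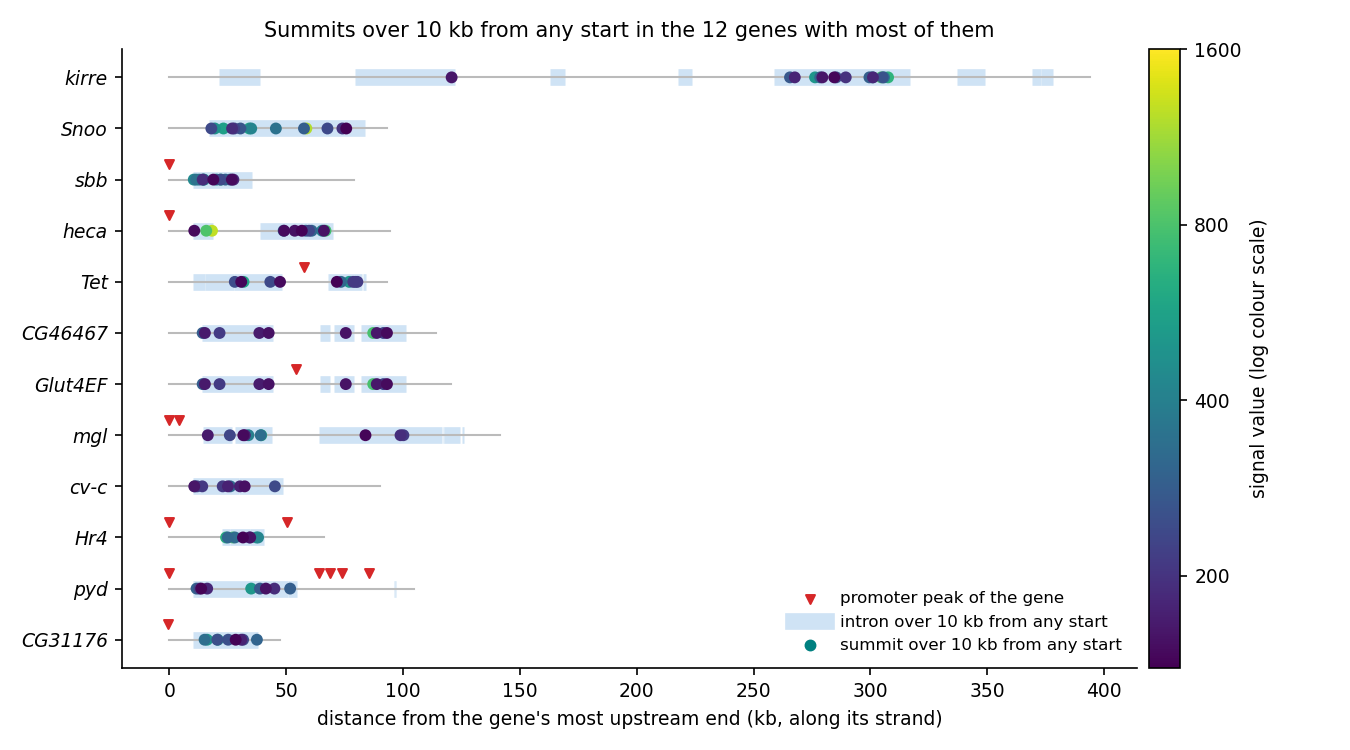
The 12 genes with most members, drawn from the gene's upstream end (kb, along its strand). Dots are members coloured by signal value on a log scale, blue bars are intron over 10 kb from any start, red triangles are promoter peaks of the gene. In kirre 15 of 16 dots lie together, far from a single one at 121 kb, and in sbb and Hr4 the dots fill a single short bar.

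Hosts also had promoter peaks more often. A thresholded promoter peak was present at 115 of 221 protein-coding hosts (52.0%, 45.5% to 58.5%) and at 146 of 563 genes with eligible sequence and no member (25.9%, 22.5% to 29.7%). Among genes with over 20000 bp of eligible sequence it was 45 of 89 (50.6%) and 17 of 125 (13.6%), and within the arm span 45 of 89 and 17 of 94 (18.1%). The gap was thus present among genes of long introns too. Of the 12 top hosts, kirre, Snoo, CG46467 and cv-c had no promoter peak.

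Gene lists were compared by members per Mb of their own eligible sequence, against 35.8 per Mb over all 784 protein-coding genes, or 53.8 within the arm span. The lists were chosen with earlier results of these data known. Their intervals cover counting error only and treat members as independent, although many members lay near another, so they are too narrow where few genes hold most members. Ecdysone response genes had 37 members in 0.220 Mb (168 per Mb, 118 to 232), in 8 of 12 genes with eligible sequence. Hr4 had 9, tai 8 and ftz-f1 6, the last with 7 in replicate 2 and 2 in replicate 4, and Eip63E and chinmo had 0, with a promoter peak at each. The list as a whole had 38 in replicate 2 and 37 in replicate 4.

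Several signalling lists were also above the value for all genes. Notch pathway genes had 144 per Mb (62.1 to 283), in 3 of 6 genes. N, the Notch receptor gene, and Ser, a ligand gene, had 3 each, kuz, the protease that cleaves the receptor, had 2, and mam and fng had 0. The ligand gene Delta, listed under its older symbol Dl and so not counted above, had 1 member (signal 233.0), and with it the list had 9 members in 4 of 7 genes (141 per Mb, 64.6 to 268). Wnt, Hedgehog and BMP genes had 97.8 per Mb (55.9 to 159), in 9 of 12: fz, a Wnt receptor gene, had 5, arr, the co-receptor gene, and dally, a glypican gene, had 2 each, while Wnt6 and pan had 0. Receptor tyrosine kinase genes had 79.9 per Mb (38.3 to 147), in 7 of 10, with 3 in the kinase gene msn, 2 in InR and 1 in vn. rl, the ERK gene, had 0 in 38.0 kb that lies outside the arm span, and pyr also had 0. Within the span the list had 115 per Mb (55.1 to 211). Its ratio to all protein-coding genes, 2.23, had an interval that included 1 in replicate 4 alone (2.00, 0.912 to 3.79) and in the stronger 50% of thresholded peaks (2.77, 0.898 to 6.46).

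Genes of cell polarity, adhesion and the cytoskeleton had 117 per Mb (79.2 to 168), in 8 of 23. That share of hosts, 34.8% (18.8% to 55.1%), was near the 28.2% of all protein-coding genes. cv-c (10) and pyd (9) held most of the 30 members, followed by RhoGEF64C with 3, while sif, a Rac exchange factor gene, and form3 had 0. Polycomb and trithorax group genes had 167 per Mb (83.4 to 299), all from jing (6) and psq (5), and trx and Psc, with 0.937 and 0.272 kb of eligible sequence, had 0.

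Patterning transcription factors had 57.5 per Mb (36.8 to 85.5), in 12 of 31. psq and bab1 had 5 each and fru 4, while bab2, the neighbour and relative of bab1, had 0 in 23.8 kb, and zfh2 had 0 in 16.8 kb. zfh2 lies on chromosome 4, as do pan above and bt below. That chromosome had only 8 thresholded summits of any class and no member. Hox genes and cofactors had 48.7 per Mb (22.3 to 92.5): 6 in hth, a Hox cofactor gene, 2 in Antp and 1 in Ubx, which neither replicate had among its strongest 7326, and 0 in pb and abd-A. The intervals of both lists included the value within the span, 53.8 per Mb.

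Ion channel genes lay furthest under the value for all genes. Ion channel and neurotransmitter receptor genes had 2 members in 0.624 Mb (3.21 per Mb, 0.388 to 11.6), in 2 of 30 genes: nAChRalpha5, with a signal of 188.1, and mAChR-B, with 140.2. Ca-alpha1T, a calcium channel gene with 65.6 kb of eligible intron, and nAChRalpha6 with 51.3 kb had 0. Axon guidance and neuronal adhesion genes had 31.1 per Mb (23.3 to 40.8), in 15 of 59, of which kirre gave 16 of 52 members, Fas3 and ed, 2 adhesion genes of epithelia and neurons, 7 each, and dpr8 had 0 in 105 kb. Over all eligible sequence the list's interval included 35.8 per Mb, and its largest contributor, kirre, is also a muscle gene. dpr21 had 0 in 114 kb, all outside the arm span, within which the list had 33.4 per Mb. The value for all protein-coding genes there was 53.8, and the list's ratio to it was 0.621 (0.464 to 0.815). Within the span the list thus lay under the value for all genes, with an interval that covers counting error only.

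RNA-binding protein genes had 18.1 per Mb (9.92 to 30.5), in 8 of 17: sm and msi, the musashi gene, had 3 each, Rbp6 had 2 in 117 kb, and bru3 had 0 in 166 kb, as had bru1. Cyclic nucleotide and calcium genes had 22.9 per Mb (7.45 to 53.5), 1 member in each of 5 hosts of 16 genes, among them Pka-C3 (signal 662.6), Pde11 (313.2) and dnc (168.7), with 0 in Pde9 and Pde1c. Muscle genes had 26.1 per Mb (3.17 to 94.4), from 1 member each in rols and in if, an integrin gene, with 0 in Dys and bt. That value leaves out kirre, which the list holds under its older symbol duf. With kirre it was 78.5 per Mb (46.5 to 124), from 18 members in 3 of 11 genes, 16 of them in kirre. The list was then above 35.8 per Mb and not under it, but its interval included the value within the span, 53.8. This change came from kirre alone and does not describe muscle genes as a set. None of the 19 glial genes listed had eligible sequence.

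**Figure D5:**
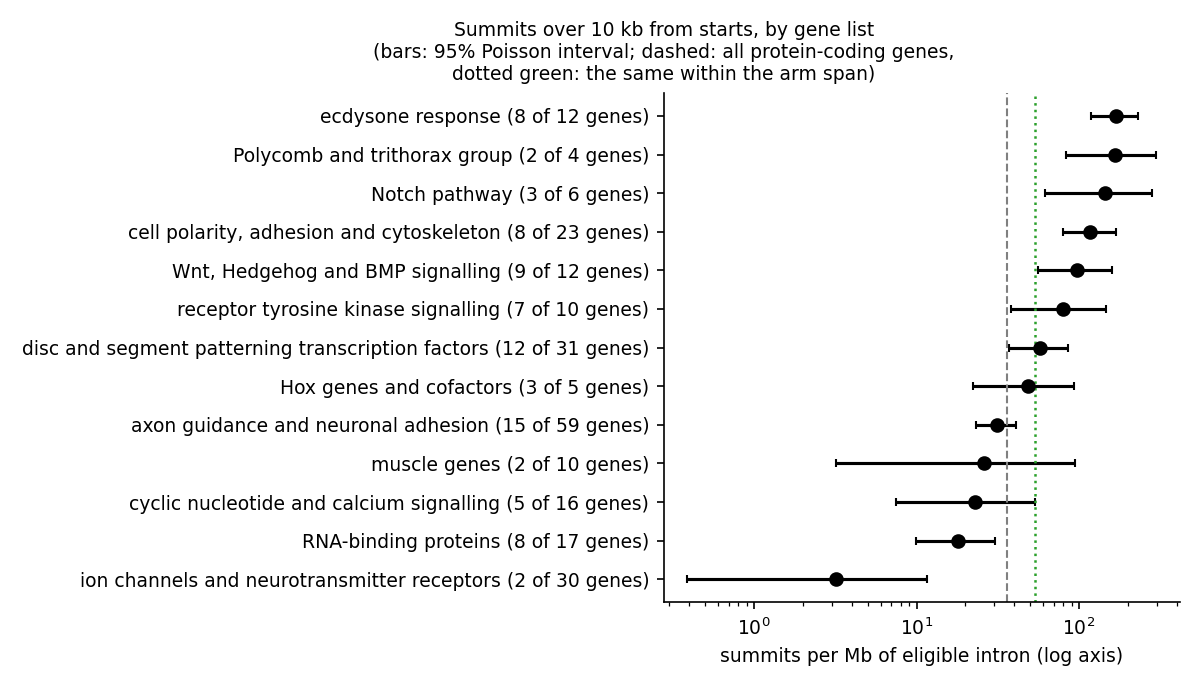
Members per Mb of eligible intron (log axis) for 13 gene lists, points with 95% Poisson intervals, with the value for all protein-coding genes over all eligible sequence (dashed, 35.8) and within the arm span (dotted, 53.8). Ecdysone response genes lie highest at 168 per Mb and ion channel and receptor genes lowest at 3.21. The muscle point, at 26.1, leaves out kirre, with which it would be at 78.5.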

How the data were processed

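Peak lists of a ChIP-seq experiment on prepupae with tagged CG6276 were used. They have no header line. The authors deposited a signal value per peak, a score of their peak caller, and a −log10 q-value, and the score was used only inside a single list, for order or description. Positions, widths and summit offsets are as deposited. Neither the labels nor the files state an aligner, peak caller, IDR threshold or read depth, and the depth is therefore unknown. The replicate lists and the pooled list had 30000 peaks each, labelled as peaks and background.

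Coordinates are dm6 and 1-based, on chromosomes 2L, 2R, 3L, 3R, 4 and X. Genes and starts came from Ensembl release 115 (BDGP6.54), without transposable elements, and sequence from the RefSeq Release 6 assembly. A match between lists required an overlap of 50% of each peak's length. Shares have 95% Wilson intervals and densities exact Poisson intervals, for counting error only. No test was run, since peaks and genes are not replicates. The scripts (Python 3.11.15, numpy 2.4.6, pandas 2.3.3, scipy 1.17.1) were checked on simulated peaks.

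The members and the 14 gene lists were chosen with earlier results of these data known. Of 619 list symbols, 15 did not match the annotation. As an alternative added after the data were seen, 11 of these were matched through RefSeq synonyms (Dl to Delta, duf to kirre, phl to Raf among them), and 4 stayed unmatched. Named genes are CG6276, hosts of the 15 strongest matched members, the 12 hosts with most members, the 3 farthest summits and, per list, the 3 leading hosts and up to 2 members with eligible sequence and no summit. The arm span was added after the data were seen. No sequence from chromosome 2R is printed.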

Additional observations from a re-analysis of the deposited data

How the results depend on the processing

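The distal intronic share of 8.23% was 6.63% in the stronger 50% of thresholded peaks, 18.3% with summits over 5000 bp from a start, 2.07% over 20000 bp and 10.3% with starts of protein-coding genes only, and 7.21% to 8.29% in 1 replicate alone. Under the stronger 50%, 5000 bp and 20000 bp settings, the density of 35.0 per Mb was 14.1, 47.5 and 17.6, and the 232 hosts were 138, 491 and 60. In 1 replicate alone the density was 30.7 to 35.3 per Mb. It was 47.1 without the 10 genes with most sequence over 30 kb and 52.7 within the arm span, both chosen after seeing the data. The median place of members in the signal ranking, at 57.1% of the way from the strongest, was at 62.8% in the stronger 50%. Matching in both replicates, 74.1%, was 98.0% with 1 bp and 48.4% with 80% of both lengths, and the pooled share of 21.6% was 20% with 50% of both lengths. Members within 2000 bp of another, 46.9%, were 30.5% in the stronger 50%, 42.7% with peaks joined, and 42.8% to 44.2% in 1 replicate alone. The ratio of CAGTG windows to eligible windows, 1.76, was 1.10 with windows reaching 50 bp to each side, which leave out most of the side zones.

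Relative to all protein-coding genes, within the arm span the ecdysone list was at 3.12 in place of 4.70, axon guidance at 0.621 in place of 0.870 and polarity genes at 2.20 in place of 3.28, and Hox genes passed to the other side of 1, at 0.905 in place of 1.36. Notch genes were at 2.67 (1.15 to 5.27) there in place of 4.02. Wnt, Hedgehog and BMP genes were at 1.82 (1.04 to 2.95) in place of 2.73. With older symbols matched, muscle genes were at 2.19 in place of 0.730, also on the other side of 1, through kirre alone. Notch genes were then at 3.94 in place of 4.02 and Polycomb and trithorax genes at 4.09 in place of 4.66. In the stronger 50%, ion channels and muscle genes were at 0 and RNA-binding genes at 0.269 in place of 0.507. Of 166 alternative values, 132 stayed within the interval or 1.5 times the count, and 34 moved further. Where a value moved, the cause was not tested unless the setting itself counts fewer peaks or less sequence. No paired analysis was possible because there was a single group. With depth unknown and 2 replicates, a missing peak does not show that a site was unbound.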
